A study of Mus musculus with 21 samples.

Results

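Skil, Ski, Tgif1, Ldlrad4, Bhlhe40, Tgm2, Tgfbi, Ltbp2, Angptl4 and Pdlim7 are 10 genes whose transcription is known to answer to TGF-β. They were taken by gene symbol from the deposited gene table, which held 55573 genes; each symbol had 1 entry there, and all 10 were among the 15432 genes that passed the filter on low counts. All 7 groups of the study were mouse E0771 breast cancer cells carrying GFP, with 3 RNA-seq libraries each. These were the parental line without treatment (E0771GFP), that line with an empty vector, that line with ZBTB18 overexpression, and M11GFP and M12GFP, lines from spontaneous lung metastases of E0771GFP cells. The last pair of groups were ZBTB18 overexpressing cells with a doxycycline-inducible TGFBR2, given doxycycline (1 mg/mL, as the label writes it) and either vehicle or TGF-β1 (2 ng/mL). They are called vehicle cells and TGF-β1 cells here. Both therefore carry the ZBTB18 construct, the receptor construct and the doxycycline, and differ by the ligand, while vehicle cells differ from ZBTB18 cells by receptor, doxycycline and vehicle at once. The labels name a single line of each kind, no length of treatment and no separate cultures or animals behind the replicate numbers, so the tests measure the spread between these libraries, which may be technical, and a difference between lines cannot be told apart from an effect of the construct.

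TGF-β binds TGFBR2, which recruits and activates TGFBR1, and the complex phosphorylates SMAD2 and SMAD3, which enter the nucleus with SMAD4 and act on target genes with partner factors. Some of the genes switched on by this route restrain it: Skil (encoding SnoN), its relative Ski and the homeobox factor Tgif1 act as SMAD co-repressors, and Ldlrad4 encodes a membrane protein that limits SMAD phosphorylation. Others change the matrix or the cytoskeleton of the cell, which is where the pathway is best known in invasive breast cancer. ZBTB18 belongs to the zinc finger proteins that repress transcription.

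From the RefSeq table of promoters, windows were read for 5 of the 10 genes (9 windows, 5 of them for Tgif1). Ldlrad4 was not looked up there. For the 4 of those 5 that changed in the comparisons of ZBTB18 or TGF-β1, the 250 bases before that table's start are shown. That start differs from the start of the gene spans given below (GENCODE vM21). Each window shown overlaps the span of its gene, and most of the Pdlim7 window lies inside it. They are, on build GRCm38.p6, Tgfbi at chr13:56609336-56609585 on the plus strand, Ltbp2 at chr12:84876492-84876741, Pdlim7 at chr13:55513447-55513696 and Ski at chr4:155222536-155222785, the last 3 on the minus strand. Each is written 5′ to 3′ along its gene, and capitals mark matches on either strand to CAGAC, a short SMAD-binding sequence, to CATCTG, an E-box of the kind ZBTB18 binds, or to TGANTCA, the AP-1 sequence.
Tgfbi: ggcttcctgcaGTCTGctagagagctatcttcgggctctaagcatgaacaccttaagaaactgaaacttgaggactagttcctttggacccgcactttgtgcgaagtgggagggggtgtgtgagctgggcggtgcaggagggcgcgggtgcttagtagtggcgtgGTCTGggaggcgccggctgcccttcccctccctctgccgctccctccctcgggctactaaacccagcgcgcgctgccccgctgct
Ltbp2: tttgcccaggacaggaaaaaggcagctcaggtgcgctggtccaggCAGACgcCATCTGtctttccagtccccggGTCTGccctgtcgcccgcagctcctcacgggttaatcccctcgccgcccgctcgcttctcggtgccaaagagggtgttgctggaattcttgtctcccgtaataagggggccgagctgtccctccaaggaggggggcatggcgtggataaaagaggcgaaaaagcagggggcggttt
Pdlim7: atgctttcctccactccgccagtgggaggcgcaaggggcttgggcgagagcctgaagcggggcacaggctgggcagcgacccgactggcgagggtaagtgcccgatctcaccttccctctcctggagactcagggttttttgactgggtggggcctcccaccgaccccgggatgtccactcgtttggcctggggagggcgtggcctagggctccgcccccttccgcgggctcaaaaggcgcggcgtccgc
Ski: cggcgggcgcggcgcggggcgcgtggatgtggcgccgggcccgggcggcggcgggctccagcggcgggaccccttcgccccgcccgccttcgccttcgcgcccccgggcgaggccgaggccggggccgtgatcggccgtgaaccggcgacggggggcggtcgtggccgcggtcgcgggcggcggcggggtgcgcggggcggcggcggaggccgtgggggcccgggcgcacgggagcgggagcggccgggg
The Tgfbi window held 2 matches to the SMAD-binding sequence. In the Ltbp2 window there were 2 of these and 1 E-box match. Neither Pdlim7 nor Ski had a match to any of the 3 motifs, and the Ski window was 87.6% guanine and cytosine. Among the 5 Tgif1 windows, 3 held the SMAD-binding sequence and 1 held the E-box. The AP-1 sequence was in none of the 9 windows. Of 32851 windows of this length in the table, 42.2% held the SMAD-binding sequence, 14.4% the E-box and 6.75% the AP-1 sequence on either strand, with no overlap between motifs in the windows shown. The matches describe these letters and mark no site.

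Library totals ran from 24208564 to 90518866 counts, which gave each of the genes other than Ltbp2 at least 34 counts in every library. Levels are library-scaled read counts after TMM scaling (CPM), and an error after ± is the SD over the 3 libraries of a group. In a log2 fold change the group named second is the reference. Adjusted p comes from edgeR's quasi-likelihood test with Benjamini-Hochberg adjustment over all genes tested, with a threshold of 0.05. Zbtb18 was at 25.1 ± 0.91 CPM with empty vector and 113 ± 9.6 CPM with ZBTB18 overexpression, and Tgfbr2 at 26.6 ± 0.44 and 1.74 ± 0.25 CPM. In vehicle and TGF-β1 cells Tgfbr2 was at 588 ± 33 and 604 ± 17 CPM, and Zbtb18 at 82.9 ± 6.5 and 95.2 ± 4.3 CPM. As for the label of breast cancer cells, Krt8 was present (107 to 346 CPM), but 5 of 8 epithelial markers were under 1 CPM in every library, Cdh1 among them. Of 4 mesenchymal markers, Vim stood at 2170 to 5460 CPM and S100a4 at 10.4 to 415 CPM, while Cdh2 and Fn1 were under 1 CPM in every library. Of the markers of blood cells 4 of 6 were under 1 CPM everywhere and of lung epithelium 3 of 5 had 0 reads. Parental replicate 1 had 14% of its counts on Gm42418, an rRNA-like gene, against at most 0.0918% elsewhere. RNA was measured in bulk, so fewer cells that express a gene and less RNA per cell cannot be told apart.

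With ZBTB18 overexpression, 7 of the 10 genes were lower than with empty vector and 0 were higher; over all genes tested 14.5% were called lower and 14% higher. Their median log2 fold change was -0.69, beside 0.01 over all genes. With TGF-β1 against vehicle, 5 of the 10 rose and 0 fell, where 1.26% of all genes tested were called higher and 0.654% lower, and the median was 0.6 beside 0. All 10 estimates lay between -2.99 and -0.13 in the first comparison and between 0.14 and 1.3 in the second, so no unadjusted test went the other way, and DESeq2 also called 0 higher and 0 lower, respectively. The comparisons share no library. Skil, Ldlrad4, Bhlhe40 and Pdlim7 fell in the first and rose in the second (4 of 10), Tgm2, Tgfbi and Ltbp2 fell without a called rise (3), Ski rose without a called fall, and Tgif1 and Angptl4 (2) passed neither test. In a fit that pairs vehicle and TGF-β1 libraries by replicate number, Tgfbi, Angptl4 and Tgif1 were called higher with the ligand too, and that tally changes.

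**Figure D1:**
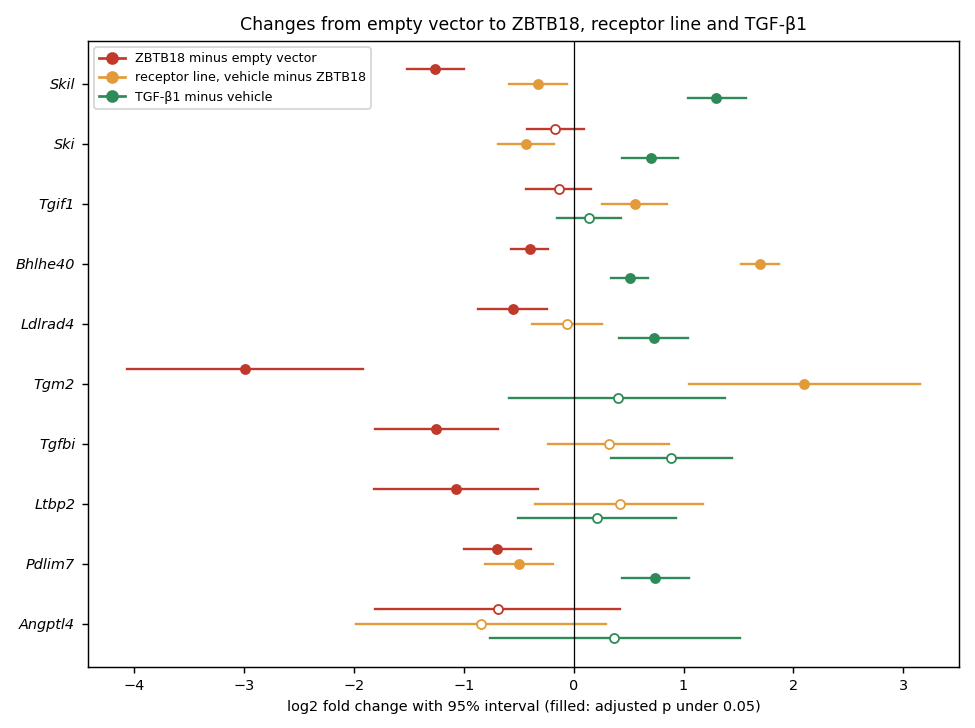
Log2 fold change of each of the 10 genes (horizontal axis) with ZBTB18 overexpression against empty vector, in vehicle cells against ZBTB18 cells, and with TGF-β1 against vehicle. Lines are 95% intervals and filled points have an edgeR adjusted p under 0.05. In the first and last of these comparisons, Skil has points of -1.26 and 1.3 on opposite sides of 0, while Tgm2 has -2.99 and 0.4.

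Skil (chromosome 3, 31095058 to 31122577 on mm10) showed the smallest adjusted p of the 10 in both comparisons. It stood at 76.7, 64.9 and 81.5 CPM in the empty vector libraries and at 30.3, 28.6 and 34.1 CPM in the ZBTB18 libraries. Every ZBTB18 library was below every empty vector library, and the 2.4-fold lower level had a log2 fold change of -1.26 (SE 0.13, edgeR adjusted p = 1.57e-07). Vehicle cells had 21.3, 22.8 and 30.6 CPM and TGF-β1 cells 53.7, 62.9 and 66.9 CPM. Again the groups did not overlap: with the ligand Skil was 2.46-fold higher (log2 1.3, SE 0.13, edgeR adjusted p = 3.66e-06). The sum of rise and fall was 0.04 on the log2 scale, with a 95% interval of -0.33 to 0.41. Against empty vector cells, TGF-β1 cells stood at -0.28 (95% interval -0.54 to -0.02, edgeR adjusted p = 0.0687), and these groups overlapped.

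Ski (chromosome 4, 155154075 to 155222592) followed the ligand but was not called with ZBTB18. It measured 96.1, 88.5 and 86.1 CPM with empty vector and 84, 82.2 and 75 CPM with ZBTB18, a log2 fold change of -0.17 (95% interval -0.42 to 0.09, edgeR adjusted p = 0.34). The ZBTB18 libraries were all lower, by less than the test could call in the fit of all groups. Fitted on those 6 libraries alone, Ski was called lower (-0.17, edgeR adjusted p = 0.0438). In that fit 5904 genes were called in either direction, beside 4388. With the receptor line, Ski also responded to the ligand. From 59.7, 61.2 and 57.8 CPM with vehicle it rose to 102, 101 and 87.5 CPM with TGF-β1, without overlap (log2 0.7, SE 0.12, edgeR adjusted p = 0.0042). Vehicle cells lay below the ZBTB18 cells (log2 -0.43, SE 0.12, edgeR adjusted p = 0.00788), and TGF-β1 cells differed from empty vector cells by 0.1 (95% interval -0.16 to 0.35). The rise exceeded the fall by 0.53 on the log2 scale (edgeR adjusted p = 0.043); 14.2% of all genes tested passed that test of the sum. That call was lost (adjusted p = 0.0676 to 0.104) without any 1 of 9 libraries: empty vector replicates 2 and 3, ZBTB18 replicates 1 and 2, every vehicle replicate, or TGF-β1 replicates 1 and 2.

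Tgif1 (chromosome 17, 70844205 to 70853546) was not called in either comparison, though the paired fit called it with the ligand (log2 0.14, edgeR adjusted p = 0.00969). Its level was 92.3 ± 5 CPM with empty vector and 84.2 ± 5 with ZBTB18 (log2 -0.13, 95% interval -0.43 to 0.16, edgeR adjusted p = 0.543), and 124 ± 14 with vehicle and 137 ± 14 with TGF-β1 (log2 0.14, 95% interval -0.15 to 0.43, edgeR adjusted p = 0.794). In both cases the groups overlapped. The table also holds a processed pseudogene, Tgif1-ps, and reads that fit both copies are shared between them by RSEM. The receptor line itself had more Tgif1 than the ZBTB18 line, by 0.56 on the log2 scale (SE 0.14, edgeR adjusted p = 0.00366), with no overlap.

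Ldlrad4 (chromosome 18, 67933257 to 68268630, sharing its span with Fam210a and other genes on the opposite strand) was present at a low level. Empty vector libraries had 6.08, 5.47 and 5.71 CPM and ZBTB18 libraries 3.96, 4.05 and 3.76 CPM. The groups stood apart, with a log2 fold change of -0.55 (SE 0.15, edgeR adjusted p = 0.00886). Levels of 3.98, 3.5 and 3.8 CPM in vehicle cells became 5.9, 6.32 and 6.52 CPM with TGF-β1, also without overlap (log2 0.73, SE 0.15, edgeR adjusted p = 0.0135). TGF-β1 cells were then at 0.12 from the empty vector level (95% interval -0.2 to 0.43), and vehicle cells at -0.06 from ZBTB18 cells (95% interval -0.38 to 0.26). The call with the ligand was lost without vehicle replicate 2 (adjusted p = 0.103), TGF-β1 replicate 2 (0.0554) or TGF-β1 replicate 3 (0.0627).

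Bhlhe40 (chromosome 6, 108660629 to 108666925) encodes a basic helix-loop-helix repressor that takes part in the circadian clock and the response to hypoxia. Libraries with empty vector had 88.7, 93.7 and 74.2 CPM and those with ZBTB18 59.9, 68.4 and 66.5 CPM, without overlap. This was a modest fall of -0.4 (SE 0.083, edgeR adjusted p = 0.00091), and it was not called on log2(TPM + 1) (limma adjusted p = 0.153). Its larger change came with the receptor line: vehicle libraries had 218, 206 and 208 CPM, 3.24-fold above ZBTB18 cells (edgeR adjusted p = 1.77e-12). On top of that, TGF-β1 took it to 309, 297 and 295 CPM (log2 0.51, SE 0.082, edgeR adjusted p = 0.00181), 3.51-fold above empty vector cells. Every vehicle library was already above every empty vector library. The opposite-strand gene 0610040F04Rik overlaps it, and strand counting is not given in the sources used here.

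Tgm2 (chromosome 2, 158116402 to 158146436, overlapping Rprd1b and Gm20412 on the opposite strand), the transglutaminase that crosslinks matrix proteins, had the largest fall of the 10 and no called rise. It was at 94.3, 106 and 100 CPM with empty vector and at 7.98, 9.96 and 19.8 CPM with ZBTB18. The 7.95-fold lower level (log2 -2.99, SE 0.5, edgeR adjusted p = 0.000376) left no overlap. Vehicle libraries spread widely, at 20.9, 45.8 and 96.2 CPM, and so did TGF-β1 libraries, at 38.5, 65 and 110 CPM. The groups overlapped and the difference of 0.4 had a 95% interval of -0.59 to 1.38 (edgeR adjusted p = 0.833). Within pairs of the same replicate number the ligand library was higher in 3 of 3, by 0.89, 0.51 and 0.2 on the log2 scale. Vehicle cells already had 4.28-fold more Tgm2 than ZBTB18 cells (log2 2.1, SE 0.49, edgeR adjusted p = 0.00347; 0.0832 when those libraries were fitted alone). Without vehicle replicate 3, at 96.2 CPM, that difference was 2.63-fold and the one with TGF-β1 against vehicle was 1.1 (edgeR adjusted p = 0.303). The rise with ligand was smaller than the fall with ZBTB18 by 2.59 on the log2 scale, a sum of -2.59 (SE 0.67, edgeR adjusted p = 0.0174). Without vehicle replicate 3 that sum was -1.89 (adjusted p = 0.0473), and without ZBTB18 replicate 2 its adjusted p was 0.0506.

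Tgfbi (chromosome 13, 56609523 to 56639562) encodes a secreted matrix protein that binds integrins. It had 38.2, 32.6 and 32.4 CPM with empty vector and 13.6, 15.8 and 13.9 CPM with ZBTB18. All 3 ZBTB18 libraries were lower, 2.38-fold by the means fitted (log2 -1.25, SE 0.27, edgeR adjusted p = 0.00155). Vehicle cells had 19.9, 15.7 and 18.5 CPM and TGF-β1 cells 35.5, 27.7 and 36.7 CPM, again without overlap. The difference of 0.89 (SE 0.26, 95% interval 0.34 to 1.44) had an edgeR adjusted p of 0.103 and was not called, and the adjusted p was 0.00324 where only these 6 libraries were fitted. TGF-β1 cells stood at -0.05 from empty vector cells (95% interval -0.59 to 0.5).

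Ltbp2 (chromosome 12, 84783212 to 84876532, overlapping D030025P21Rik on the opposite strand), a matrix protein of the family that includes the carriers of latent TGF-β, was scarce in the cultures of the parental line and its derivatives by construct. With empty vector it had 0.64, 0.683 and 0.819 CPM, from 25 to 51 counts a library, and with ZBTB18 0.116, 0.415 and 0.474 CPM, from 6 to 26 counts. The fall of -1.07 (SE 0.36, edgeR adjusted p = 0.0293) was lost without empty vector replicate 2 (0.0535), empty vector replicate 3 (0.0904) or ZBTB18 replicate 1 (0.144). On the log2(TPM + 1) and log2(TPM + 0.1) scales it was -0.059 and -0.18 (limma adjusted p = 0.857 and 0.793). Vehicle and TGF-β1 libraries overlapped, at 0.455 ± 0.16 and 0.52 ± 0.048 CPM (log2 0.21, 95% interval -0.51 to 0.93).

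Angptl4 (chromosome 17, 33773750 to 33781830) encodes a secreted inhibitor of lipoprotein lipase. Empty vector libraries, at 19.7, 18.3 and 20.1 CPM, lay above ZBTB18 libraries, at 11.5, 11.9 and 12.5 CPM. The difference of -0.69 was not called (SE 0.52, 95% interval -1.81 to 0.42, edgeR adjusted p = 0.366) in the fit of all groups, among which the parental libraries had 9.15, 16.6 and 37.4 CPM. Fitted on those 6 libraries alone, the same difference had an edgeR adjusted p of 3.54e-05. Vehicle (6.75 ± 2.9 CPM) and TGF-β1 libraries (8.66 ± 2.4 CPM) overlapped (log2 0.37, 95% interval -0.76 to 1.51, edgeR adjusted p = 0.879).

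Pdlim7 (chromosome 13, 55495795 to 55513676) encodes a PDZ and LIM domain protein of actin fibres. Levels of 78.2, 68.6 and 87.7 CPM with empty vector compared with 51.2, 45.3 and 48.3 CPM with ZBTB18, and there was no overlap (log2 -0.7, SE 0.15, edgeR adjusted p = 0.00108). Vehicle cells had 29.3, 35.7 and 37.7 CPM and TGF-β1 cells 55.2, 57.9 and 58.2 CPM. The rise of 0.74 (SE 0.15, edgeR adjusted p = 0.00981) was close in size to the fall, with a sum of 0.05 (95% interval -0.38 to 0.48). Vehicle cells were below ZBTB18 cells (log2 -0.5, SE 0.15, edgeR adjusted p = 0.0105), and TGF-β1 cells were below empty vector cells (log2 -0.45, SE 0.15, edgeR adjusted p = 0.015). Without vehicle replicate 1 neither the rise (adjusted p = 0.0755) nor the difference from ZBTB18 cells (0.0626) was called, and the difference from empty vector cells was not called without empty vector replicate 3 (0.0767).

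**Figure D2:**
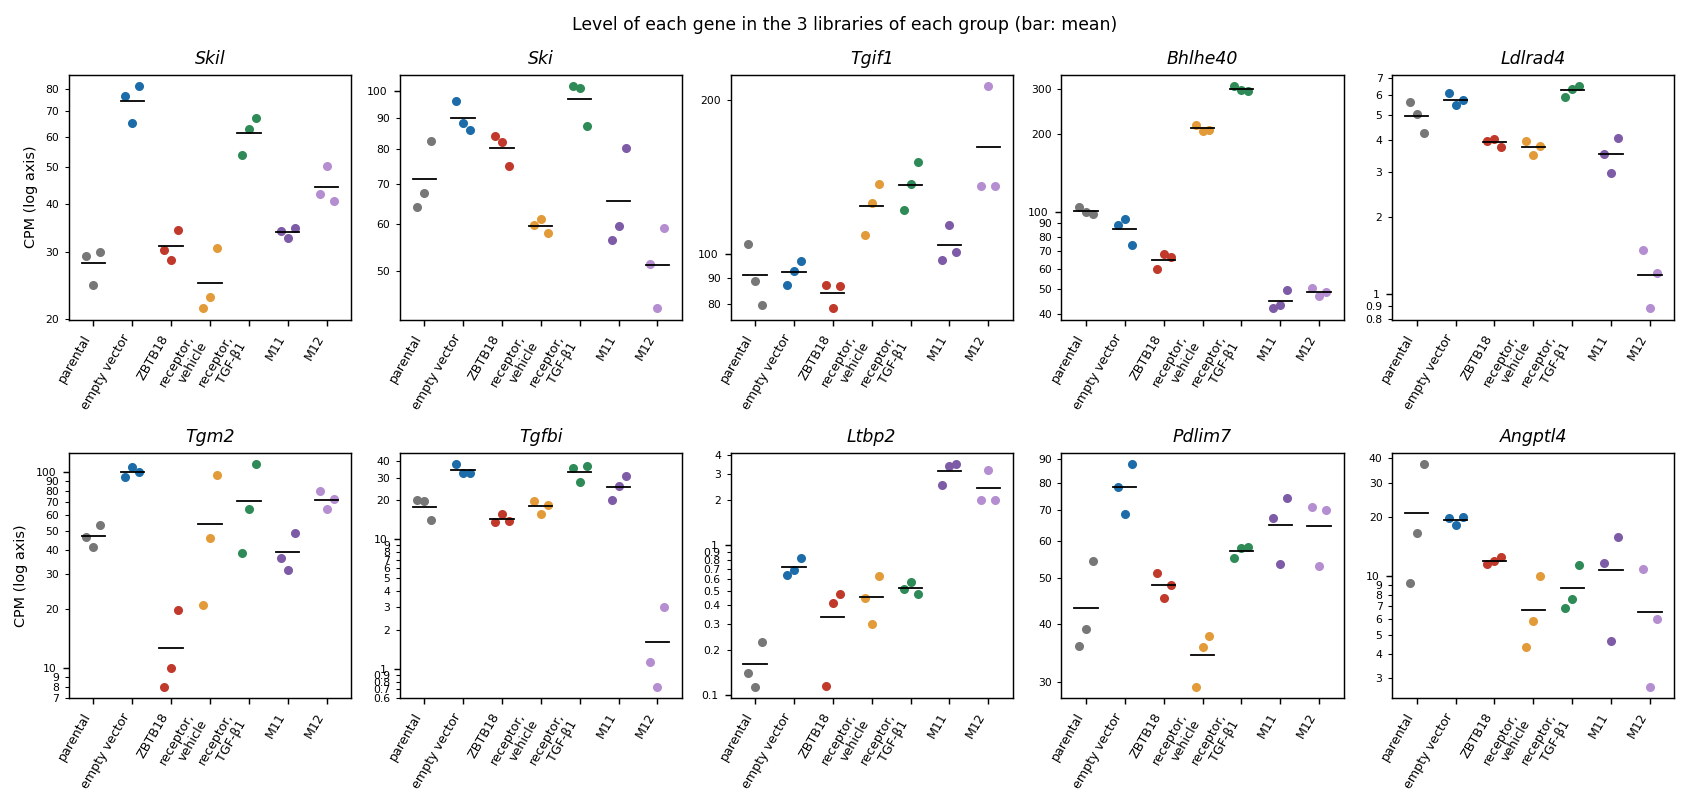
CPM (log axis) of the 10 genes in each of the 3 libraries of the 7 groups, with a bar at the mean. TGF-β1 points of Skil, Ski, Bhlhe40, Ldlrad4, Tgfbi and Pdlim7 all lie above the vehicle points, while those of Tgm2 run from 20.9 to 96.2 with vehicle and from 38.5 to 110 with TGF-β1.

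In the vehicle and TGF-β1 groups libraries with the same replicate number deviated together (correlation of deviations 0.235 to 0.538). With the replicate number as a block in a fit of those 6 libraries, a fit chosen after the data were seen, 8 of the 10 genes were called higher, where 13.4% of 14131 genes were (and 12.2% lower). Tgfbi (log2 0.88, edgeR adjusted p = 9.59e-10), Angptl4 (0.41, 0.00265) and Tgif1 (0.14, 0.00969) joined the other 5, and Tgm2 (0.52, 0.184) and Ltbp2 (0.21, 0.64) did not pass. Ligand libraries were higher in 3 of 3 pairs for 9 of the 10 genes and in 2 of 3 for Ltbp2. On log2(TPM + 1) with limma, which leaves the pairs out, 2 were called higher, and Ski (adjusted p = 0.0696), Bhlhe40 (0.0516) and Pdlim7 (0.16) were not. Over all genes, 112 were called in either direction on that scale, beside 295 in the edgeR fit of all 21 libraries.

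Against empty vector cells, TGF-β1 cells had 2 of the 10 genes called higher (Bhlhe40 and Tgif1) and 1 lower (Pdlim7), where 22.3% of all genes tested were higher and 23% lower. For Skil, Ski, Ldlrad4, Tgfbi, Tgm2, Ltbp2 and Angptl4 the difference was not called. The widest intervals, -1.47 to 0.49 for Tgm2 and -2.29 to -0.04 for Angptl4, leave room for differences of over 1 on the log2 scale. The Angptl4 and Ltbp2 libraries did not overlap between these groups. Fitted on these 6 libraries alone, Skil (-0.28, edgeR adjusted p = 0.0379) and Angptl4 (-1.158, 0.00054) were called lower. In that fit 8596 genes were called in either direction, beside 6989 in the fit of all groups. Vehicle cells against ZBTB18 cells gave 3 higher (Bhlhe40, Tgm2 and Tgif1) and 3 lower (Ski, Pdlim7 and Skil), with 19.5% and 19.3% of all genes. The Skil groups overlapped (log2 -0.32, edgeR adjusted p = 0.0482), and its call was lost without ZBTB18 replicate 1 or 3 or vehicle replicate 1 or 2 (adjusted p = 0.0762 to 0.226).

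Other genes of the pathway were counted from lists that exclude the 10; over all genes tested, 14% were higher and 14.5% lower with ZBTB18. Of 22 tested components (ligands, their carriers, receptors, SMADs and their regulators) 6 fell with ZBTB18 and 0 rose. At an unadjusted edgeR p under 0.05, and by DESeq2, 0 rose as well. The median log2 fold change was -0.21 beside 0.01 over all genes. The lowest were Tgfbr2 (-3.94) and the receptor Acvrl1 (from 1.72 ± 0.3 to 0.335 ± 0.021 CPM, -2.35). The least changed of those called were Smad2 (-0.36), Smad4 (-0.41) and Smad7 (-0.41, edgeR adjusted p = 0.049). Among 15 SMAD co-repressors and partner factors 2 rose, Tgif2 (0.33) and Sin3a (0.3), and 4 fell, lowest Junb (-0.72) and Fosl2 (-0.43), both AP-1 subunits; the median was 0.02. Of 25 other genes known to be induced by TGF-β 4 rose and 10 fell, with a median of -0.39. Highest were the scaffold gene Nedd9 (2.88, at a low level, from 0.134 ± 0.07 to 1.11 ± 0.27 CPM) and the chromatin factor gene Hmga2 (1.19). Among those that fell was the matricellular gene Ccn2 (from 5.49 ± 0.6 to 0.888 ± 0.13 CPM, -2.63).

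With TGF-β1 against vehicle the same lists gave 1 of 22 higher, the latent TGF-β carrier Ltbp3 (131 ± 9.6 to 202 ± 22 CPM, log2 0.62, edgeR adjusted p = 0.00164), then 0 of 15, and 4 of 25 higher, with 0 lower in any list, where 1.26% of all genes tested were higher and 0.654% lower. At an unadjusted edgeR p under 0.05 the higher genes were 4, 2 and 9 and the lower ones 1, 0 and 0, and DESeq2 called 1, 0 and 7 higher and 0 lower. Those 4 were the collagen genes Col7a1 (2.24) and Col1a1 (1.95), Ccn2 (1.96) and Hmga2 (0.48). Medians were 0.04, 0.04 and 0.09 beside 0 over all genes.

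The parental line gave another reference for the ZBTB18 cells, and for most of the 10 genes it stood near them. Against it 2 of the 10 were lower with ZBTB18, Bhlhe40 (log2 -0.63, edgeR adjusted p = 1.62e-06) and Tgm2 (-1.9, 0.00354), where 31.8% of all genes were lower, and 1 was higher, Ltbp2 (1.07, 0.0475), where 29.9% were. That Ltbp2 call was lost without parental replicate 1 or 2 or ZBTB18 replicate 2 or 3 (adjusted p = 0.108 to 0.229). Skil differed from parental by 0.15 (95% interval -0.11 to 0.42), Tgfbi by -0.31 (-0.87 to 0.25) and Pdlim7 by 0.16 (-0.14 to 0.47). Empty vector cells, by contrast, had 5 of the 10 above the parental line, where 28.9% of all genes were: Skil (log2 1.41, edgeR adjusted p = 3.7e-08), Ltbp2 (2.14, 0.000249), Tgfbi (0.94, 0.00574), Pdlim7 (0.86, 6.36e-05) and Ski (0.34, 0.0221). Bhlhe40 was lower (-0.23, edgeR adjusted p = 0.021), where 29% of all genes were. Tgm2 was higher with empty vector without overlap, but was not called (log2 1.09, 95% interval 0.09 to 2.09, edgeR adjusted p = 0.0583). The Ski call was lost without parental replicate 1 or 2 or empty vector replicate 1 (adjusted p = 0.0809 to 0.0917), and that of Bhlhe40 without parental replicate 1 (0.094) or empty vector replicate 3 (0.18). Parental libraries of Skil, for instance, had 29.3, 24.5 and 30 CPM, all below 64.9 CPM, the lowest empty vector library. The mitochondrial share of counts was 2.41 to 2.56% in parental libraries and 0.861 to 1.07% with empty vector, and its part in the differences was not tested. Whether the empty vector or the line that received it moved these genes cannot be told apart.

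**Figure D3:**
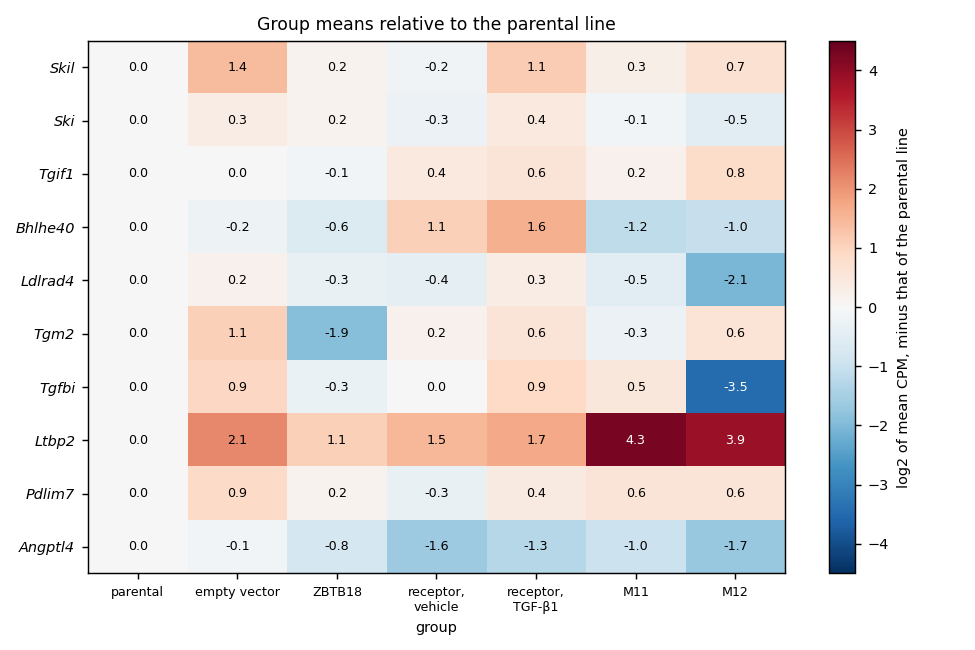
Log2 of the mean CPM of each gene in each group minus that of the parental line, as colour. Skil, Tgfbi and Pdlim7 are above 0 in the empty vector and TGF-β1 columns, and Tgfbi and Ldlrad4 are lowest in M12.

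Single genes among the 10 differed between the metastasis lines and the parental line, and between M11 and M12. The counts for M11 were near the shares over all genes. In M11 2 of the 10 genes were higher and 2 lower than in the parental line, where 20.8% and 20% of all genes were, and in M12 4 were higher and 5 lower, where 24.9% and 25.2% were. Ltbp2 rose most in both: parental libraries had 0.142, 0.114 and 0.227 CPM (5 to 8 counts), M11 libraries 2.54, 3.38 and 3.5 CPM, and M12 libraries 2.02, 3.18 and 2.01 CPM. No library of either line overlapped the parental ones, with folds of 19.4 in M11 (log2 4.28, SE 0.4, edgeR adjusted p = 2.56e-08) and 15 in M12 (3.91, SE 0.4, 5.81e-08). Pdlim7 was also higher in both (log2 0.59 each, edgeR adjusted p = 0.003 and 0.00235), though its libraries overlapped those of the parental line. Bhlhe40 was lower in both, at 44.9 ± 4 CPM in M11 and 48.6 ± 1.8 in M12 against 100 ± 3 in the parental line (log2 -1.16 and -1.05, edgeR adjusted p = 5.89e-10 and 1.7e-09).

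Tgfbi and Ldlrad4 set the lines apart. Tgfbi had 20, 19.7 and 14.1 CPM in the parental line, 20.2, 25.9 and 30.6 CPM in M11 and 1.13, 0.73 and 3.02 CPM in M12. M12 was 10.9-fold below parental (log2 -3.44, SE 0.32, edgeR adjusted p = 8.12e-08) and 15.5-fold below M11 (M11 minus M12 3.95, SE 0.32, edgeR adjusted p = 5.19e-08), while M11 minus parental was 0.51 (95% interval -0.05 to 1.07). Ldlrad4 had 5.61, 5.04 and 4.26 CPM in the parental line, 3.52, 2.97 and 4.07 CPM in M11 and 1.49, 0.881 and 1.21 CPM in M12. It was thus lower in both lines (log2 -0.5, edgeR adjusted p = 0.0151, and -2.07, 2.82e-09), and M11 was 2.97-fold above M12 (edgeR adjusted p = 5.66e-07). The M11 call against parental was lost without parental replicate 1 (adjusted p = 0.0727) or M11 replicate 2 (0.0838). Leaving out M12 replicate 3, the highest of its group, made the Tgfbi differences 20-fold against parental and 28.2-fold against M11. Of the receptors, Tgfbr2 was at 21.4 ± 1 CPM in M11 and 19.3 ± 1.8 in M12, with overlap, and Tgfbr1 at 14.2 ± 0.79 and 30.4 ± 2 CPM, without overlap (M11 minus M12 -1.1, edgeR adjusted p = 4.6e-08). Zbtb18 was also lower in M11, at 34.7 ± 4.2 against 59.2 ± 10 CPM (-0.77, edgeR adjusted p = 8.49e-06). The part of these genes in the differences was not tested.

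Skil, Tgif1 and Ski differed too, by less. Skil had 33.9, 32.6 and 34.6 CPM in M11 and 42.4, 50.1 and 40.6 CPM in M12; M12 was above parental (log2 0.67, edgeR adjusted p = 0.000171) and above M11 (M11 minus M12 -0.4, edgeR adjusted p = 0.0187). Tgif1 had 136, 213 and 136 CPM in M12, all above the 97.6, 114 and 101 CPM of M11, and it was higher than parental (log2 0.83, edgeR adjusted p = 6.01e-05). Ski was lower in M12 than in the parental line (log2 -0.48, edgeR adjusted p = 0.00278). Angptl4 was lower as well (-1.71, 0.0163), with overlapping libraries, and that call was lost without parental replicate 3 (-1.01, adjusted p = 0.121) or M12 replicate 2 (0.0686). The Skil difference between M11 and M12 was lost without replicate 2 of either line (adjusted p = 0.0603 and 0.0992). Between M11 and M12, 3 of the 10 genes were higher in M11 and 2 lower, where 17.7% and 17.8% of all genes were. Same-numbered libraries of these lines deviated together as well (0.221 to 0.44), and with the replicate block in the 6 libraries, where 18.5% and 18.7% of 14414 genes were called, Tgm2 (-0.91, edgeR adjusted p = 1.87e-06) was also lower in M11 and Angptl4 (0.75, 0.0142) also higher. Ski was among the 3 (0.35, edgeR adjusted p = 0.0307), and its call was lost without M11 replicate 3 (0.245) or M12 replicate 1 (0.0652) or 2 (0.16). Markers of blood cells, summed over 6 genes, ran from 26.1 to 77.6 CPM in M12, mostly Cd68, against 2.96 to 17 CPM in the other groups, with Ptprc at most 0.109 CPM. Markers of endothelium, summed over 4 genes, ran from 3.57 to 4.07 CPM in M11, mostly Pecam1, and from 1.52 to 2.64 CPM in M12, against at most 0.641 CPM in the other groups. The part of these markers in the differences was not tested.

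**Figure D4:**
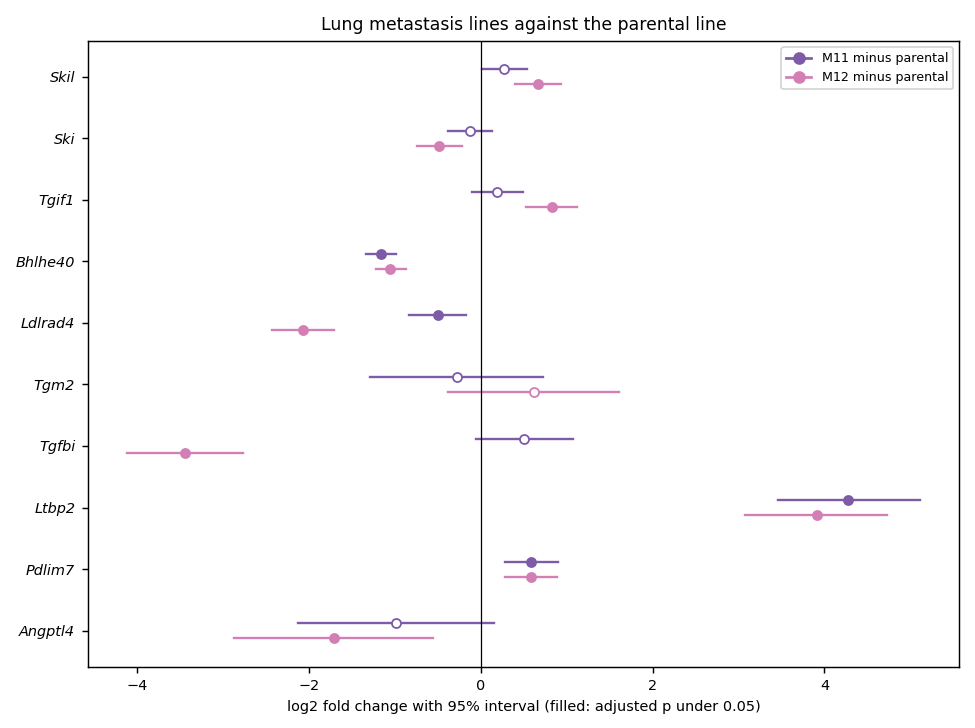
Log2 fold change of each of the 10 genes in M11 and in M12 against the parental line (horizontal axis), with 95% intervals; filled points have an edgeR adjusted p under 0.05. Ltbp2 is far right in both lines (4.28 and 3.91), and Tgfbi stands at 0.51 in M11 and -3.44 in M12.

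Per length, on the TPM scale, the 10 genes spanned a wide range: in empty vector cells the mean level was 101 TPM for Tgif1, 81.9 for Pdlim7, 45.9 for Bhlhe40, 40.9 for Tgm2, 24.4 for Ski, 19.3 for Skil, 19.3 for Tgfbi, 14.8 for Angptl4, 3.47 for Ldlrad4 and 0.42 for Ltbp2. Ordered over the 7 groups by mean CPM, Skil was highest with empty vector, then with TGF-β1, and these neighbours overlapped; M12 came next without overlap, and the M11, ZBTB18, parental and vehicle groups each overlapped the next. Over the 7 group means of log2 CPM, the highest Pearson's r among pairs of the 10 genes were 0.946 between Ldlrad4 and Tgfbi, 0.865 between Ski and Ldlrad4, and 0.819 between Skil and Pdlim7. The lowest was -0.842 between Tgif1 and Angptl4. Other pairs lay between these extremes, some near 0, such as Tgm2 and Tgfbi (-0.0202). The group means share libraries and scaling, so these values describe likeness of pattern and carry no test.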

How the data were processed

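RNA of 21 libraries, 3 in each of 7 groups read from the sample titles, was prepared with polyA enrichment and a stranded mRNA kit, per the labels' protocols. The authors deposited expected counts per gene from RSEM, not normalised, and TPM, which corrects for gene length and scales each library to a fixed sum. STAR 2.7.1a, RSEM, Trim Galore and GATK 4.1.2.0 are named, beside build mm10, per the submitters' processing notes. The order of steps, the annotation release and strand counting are not given in the sources used here. Deposited FPKM values were not used. Of the identifiers 99.29% were in GENCODE vM21, used for positions. Counts were rounded (1.28% of values were not whole), and 92 spike-in entries with 0 reads were left out.

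edgeR 4.0.16 in R 4.3.3 was run with TMM scaling, the package's filter by group, and robust quasi-likelihood F-tests on a model of all 21 libraries with a mean for each group, which left 14 residual degrees of freedom; every p is two-sided. The SE is the absolute log2 fold change divided by the square root of F, and intervals are 95%. The code was tested on simulated data. The 10 genes, the pathway lists and the cell markers were chosen with earlier results of these data known; all 10 are named, as are Zbtb18, Tgfbr2 and Tgfbr1, the 2 highest and 2 lowest called genes of each pathway list, and the 3 genes of at least 5 CPM with the most similar profile over groups. A few of the genes so chosen are not reported here. The alternatives tried were DESeq2 1.42.0 (test or size factors), no filter, 1 CPM in 3 libraries, limma 3.58.1 on log2(TPM + 1) or log2(TPM + 0.1), the libraries of a comparison alone, each library left out, and the replicate number as a block. Same-numbered libraries deviated together between vehicle and TGF-β1 cells (correlations 0.235 to 0.538) and between M11 and M12 (0.221 to 0.44). Each library correlated best with its own number in 6 of 6 cases. That also held between TGF-β1 and empty vector cells, at correlations of only 0.022 to 0.0587. The labels do not say that the numbers pair libraries, so the pairing rests on these correlations. Paired fits of the 6 libraries of vehicle and TGF-β1 cells, and of M11 and M12, were added after seeing the data. The libraries carry no molecular identifiers.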

Additional observations from a re-analysis of the deposited data

Results flagged for a closer look

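For 5 of the 10 genes the change against the parental line differed between the metastasis lines M11 and M12, by edgeR's test of M11 minus M12 over all 21 libraries. Over all genes tested 17.7% were higher and 17.8% lower in M11 than in M12. Tgfbi was higher in M11 by 3.95 on the log2 scale and Ldlrad4 by 1.57, both without overlap between libraries. Ski was higher in M11 by 0.35, with overlap. Skil, at -0.4, and Tgif1, at -0.63, were lower in M11, without overlap. The calls of Ski and Skil were lost when some single libraries were left out.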

How the results depend on the processing

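Of 100 values (10 genes in 10 comparisons, the sum of rise and fall counted as 1 of them) 50 were called. Of these calls 28 were kept under every alternative, 22 were lost under at least 1, and 28 of the 50 other values were called under at least 1. The counts of genes lower with ZBTB18 against empty vector (7) stayed within 1.5 times under every alternative run. Bhlhe40 and Ltbp2 dropped out on log2(TPM + 1) and log2(TPM + 0.1), where 3090 and 3165 of all genes were called in either direction, beside 4388 in the counts. Ski and Angptl4 joined in the libraries of the comparison alone, where 5904 were called. With the replicate block in its 6 libraries alone, TGF-β1 against vehicle called 8 higher in place of 5. The block over all libraries gave 3 lower in place of 1 for TGF-β1 against empty vector and called Tgm2 for empty vector against parental (adjusted p = 0.0179). Tgm2 was called there as well by DESeq2 (adjusted p = 0.0341), without a filter, on both TPM scales and in the libraries of the comparison alone (edgeR adjusted p = 0.00013). On log2(TPM + 1) and log2(TPM + 0.1) the counts were 2 and 1 higher with TGF-β1 against vehicle, 0 and 0 lower for vehicle against ZBTB18 (3 in the counts), 0 and 0 lower for TGF-β1 against empty vector, 4 and 5 higher and 1 and 1 lower for ZBTB18 against parental (1 and 2), 8 and 8 higher and 0 and 0 lower for empty vector against parental (5 and 1), 5 and 4 higher and 1 and 1 lower for M11 against parental (2 and 2), 3 and 3 lower for M12 against parental (5), and 1 and 1 past the test of the sum (2). Over all genes, TGF-β1 against vehicle had 112 and 81 called in either direction on these scales, beside 295 in the counts. On these scales the median of all genes moved to 0.22 and 0.306 for ZBTB18, 0.209 and 0.291 for empty vector, 0.137 and 0.199 for M11, and 0.166 and 0.232 for M12, each against parental. Tgif1 for ZBTB18 against parental turned to 0.346 and 0.35, and Bhlhe40 for empty vector against parental to 0.04 and 0.041. Without a filter the lower counts were 4 for TGF-β1 against empty vector, 4 for ZBTB18 against parental and 4 for M11 against parental. With 1 CPM in 3 libraries 0 were higher for ZBTB18 against parental. In the libraries of a comparison alone, 3 were lower for TGF-β1 against empty vector, 0 higher for ZBTB18 against parental, 0 lower for empty vector against parental, 1 lower for M11 against parental, and 1 passed the test of the sum. Leaving out each library in turn gave 0 to 2 higher for ZBTB18 against parental, 0 to 1 lower for empty vector against parental, 1 to 2 lower for M11 against M12, 1 to 2 lower for M11 against parental, 0 to 2 lower for TGF-β1 against empty vector, 1 to 3 lower for vehicle against ZBTB18, and 0 to 2 past the test of the sum. The cause of these changes was not tested. Outside the metastasis lines Ltbp2 rests on 5 to 51 counts a library.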

Other observations

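The genes whose 7 group means of log2 CPM followed those of the 10 genes most closely, by Pearson's r, were Tyro3 for Skil (0.9385), Wdr11 for Ski (0.9565), Pcdhgb2 for Tgif1 (0.9796), Sacm1l for Bhlhe40 (0.9927), Hspb6 for Ldlrad4 (0.9739), Klf6 for Tgm2 (0.9481), Brpf3 for Tgfbi (0.9891), Mtrf1l for Ltbp2 (0.9895), Clic1 for Pdlim7 (0.9394) and Mrpl51 for Angptl4 (0.9762). The next in order were Plekhg3 and Prdm10 for Skil, Stt3a and Msantd3 for Ski, Nr1d1 and Arl5b for Tgif1, Pmvk for Bhlhe40, Cfdp1 and Kdelr1 for Ldlrad4, Lysmd3 and Pip5k1a for Tgm2, Atn1 and Npepl1 for Tgfbi, Thoc2 and Fgd6 for Ltbp2, Mapkbp1 and Ppp2r5e for Pdlim7, and Fkbp4 and Dnajc9 for Angptl4. Each value is the highest over 7 points among the named protein-coding genes with a mean of at least 5 CPM in some group, described without a test, and Pcdhgb2 belongs to a cluster of near copies among which RSEM shares reads.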
